A study of Mus musculus with 3 samples.

Results

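Cyclic nucleotide signalling was followed through 42 genes of cultured mouse cortical neurons. These were the protein-coding genes whose symbol starts with Adcy or Pde and a digit, or with Prkac or Prkar: 10 adenylyl cyclase genes, 26 genes with a phosphodiesterase name and 6 genes of cAMP-dependent protein kinase (PKA). They were chosen by symbol, with no measured value in the rule, from 18121 protein-coding genes in the table. Earlier results of these data were known when the genes and the comparisons were chosen. RNA came from dissociated cortical neurons of embryonic day 16 Swiss-Webster mice, an outbred stock, grown on poly-D-lysine in neurobasal medium with B27. The 3 libraries form 1 group, WT neurons with no treatment (the shared protocol text describes etoposide, which these labels do not give), so every comparison here is between genes within a library. The study maps where the topoisomerase TOP2B is engaged on neuronal DNA, for which RNA levels serve as a companion measurement. The labels do not say how many days the neurons were kept, nor whether the libraries came from separate cultures, so their spread may be technical.

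Adenylyl cyclases make cAMP from ATP, mostly at the plasma membrane and under the control of G proteins and, for some enzymes, calcium. Phosphodiesterases break down cAMP, cGMP or both, and so set where and for how long the messenger lasts. In its resting state PKA is a tetramer of a pair of catalytic and a pair of regulatory subunits, and cAMP binding to the regulatory pair frees the catalytic subunits. In cortical neurons the pathway is known for its part in synaptic plasticity and in activity-dependent transcription through CREB.

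A sequence that separates type I from type II PKA regulatory subunits is the inhibitor site, the stretch that occupies the catalytic cleft of the kinase. Other stretches of these genes were not compared. It is shown because the levels below split along the same line, type I against type II. Each run is the coding strand of the longest coding transcript, with the 5 codons of the site in capitals, and residues follow from the codons. The type I sites are:
Prkar1a: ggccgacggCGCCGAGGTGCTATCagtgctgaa
Prkar1b: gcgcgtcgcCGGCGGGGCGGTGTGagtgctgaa
and the type II sites are:
Prkar2a: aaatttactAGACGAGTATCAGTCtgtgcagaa
Prkar2b: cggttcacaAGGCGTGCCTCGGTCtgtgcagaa
The first pair of codons in capitals encodes arginine and arginine in all 4 genes. The fourth codon is GCT (alanine) in Prkar1a and GGT (glycine) in Prkar1b, residues that cannot be phosphorylated, and TCA (serine) in Prkar2a and TCG (serine) in Prkar2b. As background, type I subunits therefore act as pseudosubstrates, and type II subunits as substrates that the catalytic subunit phosphorylates. Coordinates are those of the whole printed run, capitals and small letters together. The Prkar1a run lies at chr11:109660098-109660130 on the plus strand of mm10, in exon 4 of 12. The Prkar1b run lies at chr5:139108523-139108555 on the minus strand, in exon 3 of 11. The Prkar2a run (chr9:108714287-108716873, plus strand) and the Prkar2b run (chr12:31993773-32038643, minus strand) each span the intron between exons 2 and 3 of 11. Whether the 5 codons in capitals are themselves split by that intron was not examined.

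A second signature marks the enzymes among the phosphodiesterase names. A metal-binding motif typical of catalytic domains of this superfamily is histidine, aspartate, any 2 residues, histidine, any 4 residues and asparagine. Its codons were searched in the longest coding transcript of all 26 Pde genes and are shown for the enzymes that lead their substrate class, with the codons of the named residues in capitals:
Pde2a: CATGACctggacCACagaggcacaaacAAC
Pde1a: CATGATtatgagCACacaggaacaacaAAC
Pde4b: CATGATgtcgatCATcctggagtctccAAT
Pde4d: CATGATgtggacCATcctggggtgtcaAAT
Pde9a: CATGACctggacCACccagggtacaacAAT
The motif was found once in 19 of 21 catalytic Pde genes. No match to this exact pattern, which requires asparagine at its end, was found in Pde7a and Pde7b. Other forms of the motif were not searched. It was found in 0 of the 5 other genes with a Pde name: Pde6d, Pde6g, Pde6h, Pde12 and Pde4dip. The Pde2a motif is in exon 24 of 31 (chr7:101508482-101508511, plus strand), the Pde1a motif in exon 7 of 15 (chr2:79887861-79887890, minus strand) and the Pde4d motif in exon 6 of 10 (chr13:109939313-109939342, plus strand). The Pde4b motif lies in exon 11 of 15 (chr4:102599694-102599723, plus strand) and the Pde9a motif in exon 12 of 19 (chr17:31460230-31460259, plus strand).

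Levels are TPM, a read share scaled by transcript length, so that levels of different genes can be set side by side. Each gene is represented by the row of its longest protein-coding transcript, values are mean ± SD of the 3 libraries (n = 3), and a gene is called detected at a mean of at least 1 TPM. Of the 42 genes, 27 were detected, which is 64.3% of them, beside 61.5% of all protein-coding genes. At 10 TPM or more stood 14 genes, 33.3%, beside 26.4% of all protein-coding genes. A further 13 genes lay between 1 and 10 TPM, 6 between 0.1 and 1 TPM and 9 under 0.1 TPM. The median of log2(TPM + 1) was 2.55 ± 0.03 over the 42 genes and 1.94 over all protein-coding genes. The range ran from 144 TPM for Prkar1a, at percentile 99.2 of protein-coding genes, down to 0.00261 TPM for Pde6b.

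**Figure D1:**
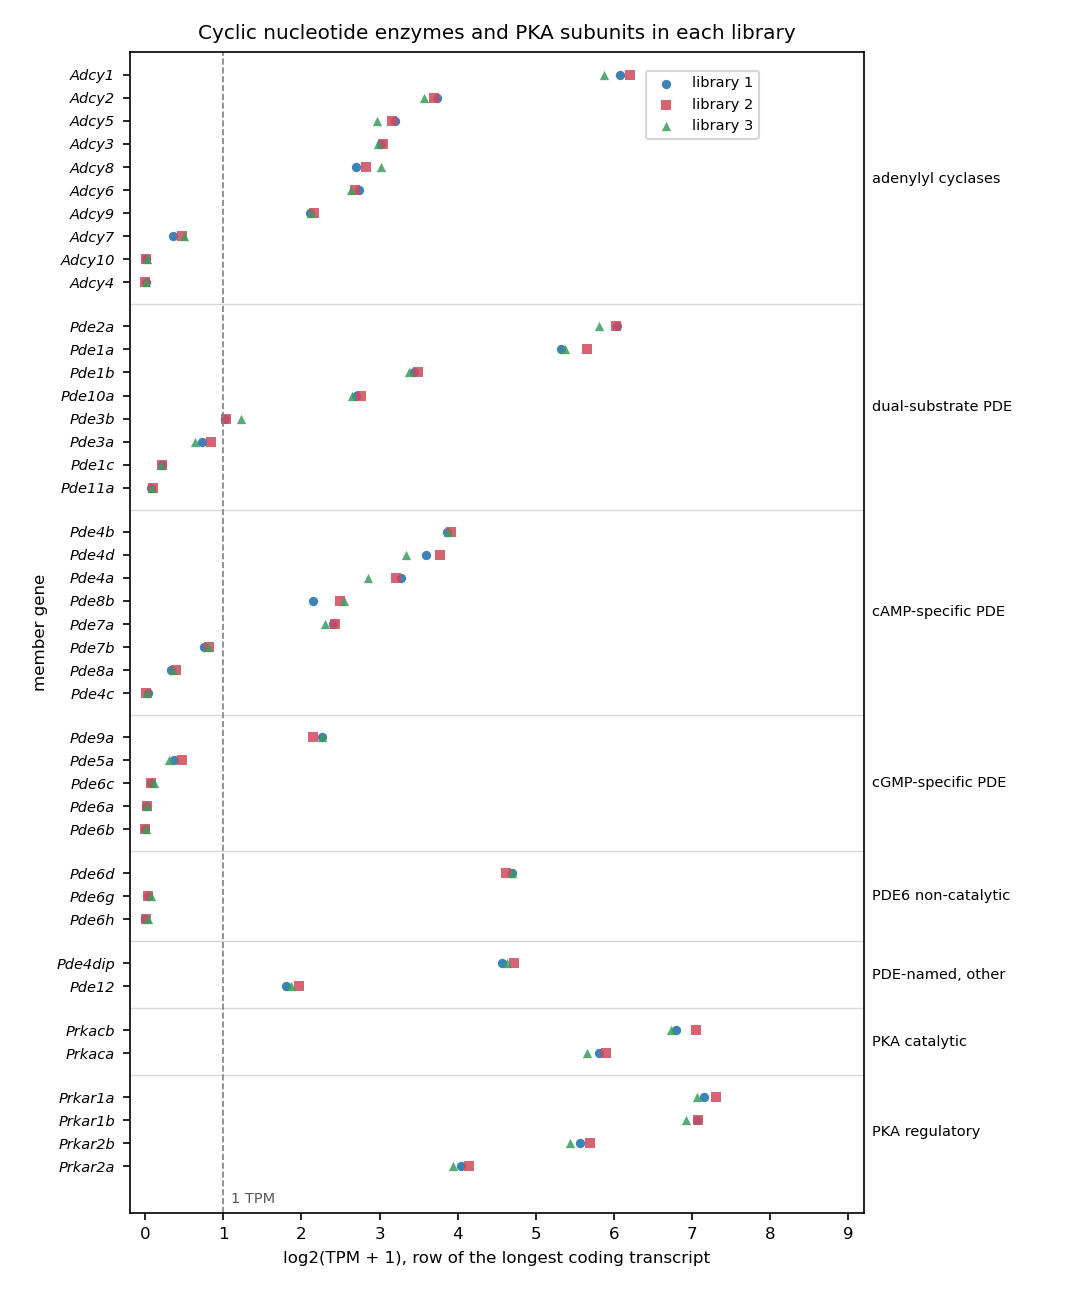
Level of each of the 42 genes as log2(TPM + 1) on the row of its longest coding transcript, with 1 symbol per library and genes grouped by role; the dashed line marks 1 TPM. All 6 PKA genes lie to the right of the line, as do 7 of 10 adenylyl cyclases and 11 of 21 catalytic phosphodiesterases.

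Among the adenylyl cyclases, 7 of 10 were detected and Adcy1 stood far above the rest. Adcy1 (chr11:7063489-7178506, plus strand), a calcium- and calmodulin-stimulated enzyme known for its part in cortical and hippocampal plasticity, was at 66.2, 72.8 and 57.4 TPM in libraries 1, 2 and 3. That made 65.5 ± 7.72 TPM, percentile 96.8 of protein-coding genes and 60.9% ± 2.32 of the summed adenylyl cyclase level. The next gene, Adcy2, an enzyme that G protein beta-gamma subunits stimulate, was at 12.3, 11.9 and 10.9 TPM. No library of Adcy1 came near any library of Adcy2. With the highest row of each gene Adcy2, at 11.7 TPM, stayed above Adcy3, at 7.97 TPM. With all rows added up Adcy1 was at 121 TPM, and Adcy3, which has 8 rows, was next at 51.0 TPM, ahead of Adcy2, which has 1. That sum counts reads of shared exons on every row that holds them.

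Below these came a close group of 4 enzymes. Adcy5, calcium-inhibited and known as the main striatal cyclase, was at 8.13, 7.90 and 6.84 TPM in libraries 1 to 3. Adcy3, known from olfactory neurons and neuronal cilia, was at 7.10, 7.25 and 6.86 TPM. Adcy8, the other calmodulin-stimulated enzyme of the forebrain, was at 5.47, 6.07 and 7.12 TPM. The ranges of Adcy5, Adcy3 and Adcy8 overlapped, and Adcy8 was the only adenylyl cyclase at or above 1 TPM that was highest in library 3. Adcy6, the close relative of Adcy5, was at 5.65, 5.42 and 5.23 TPM, inside the range of Adcy8 in library 1 alone. Adcy9, a widely expressed enzyme with little response to forskolin, was lower at 3.38 ± 0.0779 TPM.

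The other 3 cyclases were under the detection level. Adcy7 was at 0.360 ± 0.0713 TPM. Adcy10, the bicarbonate-sensitive soluble enzyme, rested on 1, 2 and 3 reads, and Adcy4 was listed at 0 in library 2 and at a mean of 0.00394 TPM. Grouped by calcium control, the stimulated genes Adcy1, Adcy3 and Adcy8 summed to 78.8, 86.1 and 71.4 TPM and the inhibited genes Adcy5 and Adcy6 to 13.8, 13.3 and 12.1 TPM. The log2 difference was 2.50 ± 0.09, a ratio of mean levels of 6.03, and the stimulated sum was higher in 3 of 3 libraries. Adding up all transcript rows of each gene raised the difference to 3.67. Adcy3 is counted as stimulated from its behaviour in vitro.

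This and the 9 other differences given below were tested in the same way, by flipping signs among the 3 libraries in an exact permutation test (two-sided). Each of the 10 had the same sign in all 3 libraries, each had p = 0.25 by this exact test, the smallest p that 3 libraries allow, and each stayed at 0.25 after Benjamini-Hochberg adjustment over the 10. No difference could therefore pass 0.05 in this design, and sizes are read against the SD between libraries.

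The phosphodiesterase genes with a catalytic domain showed 2 leading enzymes, both of which hydrolyse cAMP and cGMP. Pde2a (chr7:101421691-101512829, plus strand), which cGMP stimulates and which is abundant in forebrain, was at 64.7, 64.0 and 55.2 TPM in libraries 1, 2 and 3. Pde1a (chr2:79834453-80129458, minus strand), which calcium and calmodulin activate, was at 38.9, 49.5 and 40.4 TPM. Their ranges did not overlap, with Pde2a higher in every library. With the highest row of each gene Pde2a was again above Pde1a, at 63.8 and 52.4 TPM. Only with all rows added up did the order turn. Pde1a, which has 10 rows, was then at 394 TPM, Pde4d at 152 TPM and Pde2a, which has 2, at 125 TPM. Such a sum counts reads of shared exons on every row that holds them, so it grows with the number of rows. On the longest coding rows Pde2a and Pde1a together held 62.2% ± 0.653 of the summed level of the 21 catalytic genes, Pde2a 36.6% and Pde1a 25.6%. The Pde2a share was highest in library 1 and the Pde1a share in library 2, while the sum of both shares moved little.

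Other dual-substrate enzymes were lower. Pde1b, calmodulin-activated like Pde1a and known from striatum, was at 9.82 ± 0.404 TPM. Pde10a, known as an enzyme of striatal projection neurons, was at 5.49, 5.79 and 5.24 TPM. The log2 difference between Pde10a and Pde2a was -3.26 ± 0.08, negative in 3 of 3 libraries, and shrank to -1.29 when all rows were added up. Pde10a has 11 rows and Pde2a has 2, and how much of the change came from this was not tested. In RNA from a whole culture, fewer cells of a type and less RNA per cell cannot be told apart. Pde3b, the cGMP-inhibited enzyme known from insulin signalling, was just above the detection level at 1.13 ± 0.169 TPM. Its relative Pde3a at 0.662 ± 0.119 TPM, Pde1c at 0.157 ± 0.00823 TPM and Pde11a at 0.0635 ± 0.00797 TPM were under it.

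Of the 8 genes for cAMP-specific enzymes, 5 were detected, led by the PDE4 family that rolipram inhibits. Pde4b was at 13.6, 14.1 and 13.7 TPM in libraries 1 to 3, Pde4d at 11.1, 12.7 and 9.11 TPM and Pde4a at 8.63, 8.24 and 6.24 TPM. Pde4b had the smallest spread of the 27 detected genes, a coefficient of variation of 1.93%, whereas Pde4d and Pde4a reached 16.3% and 16.6% and were lowest in library 3. Pde4d lay below Pde4b in every library, with a log2 difference of -0.32 ± 0.20, which was -0.21 without library 3. The order of the pair turned to 0.47 in favour of Pde4d when all rows were added up. Pde4c was near 0, at 4, 1 and 3 reads.

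The high-affinity cAMP enzymes of the PDE7 and PDE8 families, which rolipram does not inhibit, were lower. Pde8b was at 3.43, 4.64 and 4.82 TPM in libraries 1 to 3 and Pde7a at 4.27, 4.37 and 3.91 TPM. Pde8b varied most among the 27 detected members, with a coefficient of variation of 17.6%, and library 1 was below the other 2. Pde7b at 0.684, 0.760 and 0.741 TPM and Pde8a at 0.257, 0.310 and 0.282 TPM were under 1 TPM in every library. The 4 Pde4 genes summed to 33.3, 35.0 and 29.1 TPM and the Pde7 and Pde8 genes to 8.64, 10.1 and 9.75 TPM, so that the PDE4 sum was higher in 3 of 3 libraries, by 1.67 ± 0.18 on the log2 scale.

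For cGMP-specific hydrolysis a single gene was detected. Pde9a, an enzyme with high affinity for cGMP, was at 3.79, 3.45 and 3.81 TPM in libraries 1 to 3. Pde5a, the target of sildenafil, was at 0.287, 0.389 and 0.238 TPM. The photoreceptor enzymes Pde6a, Pde6b and Pde6c were at 0.0131, 0.00261 and 0.0619 TPM, and Pde6b rested on 1 read in library 3 and none in the others. Photoreceptor markers were likewise low: 0 of 5 were detected, their summed level was 0.415 to 0.492 TPM and Crx was at 0 in every library.

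By substrate, dual-specificity genes held 72.5% ± 0.296 of the summed catalytic level, cAMP-specific genes 25.0% ± 0.0910 and cGMP-specific genes 2.44% ± 0.258. cAMP-specific genes summed to 41.9, 45.1 and 38.8 TPM and cGMP-specific genes to 4.14, 3.90 and 4.15 TPM, a log2 difference of 3.08 ± 0.14. These shares depend on how a gene with many rows is counted: adding up all rows gave 56.3% for dual-specificity, 38.1% for cAMP-specific and 5.57% for cGMP-specific genes, in the same order. A share of transcript level says nothing of enzyme amount or activity.

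**Figure D2:**
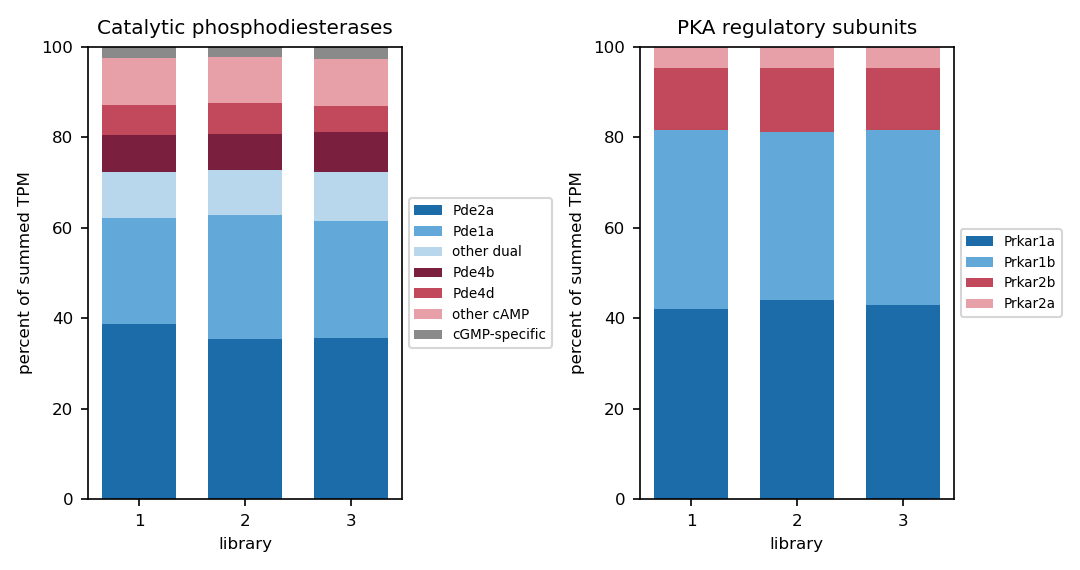
Percent of summed TPM in each library, for the 21 catalytic phosphodiesterase genes on the left and the 4 PKA regulatory subunit genes on the right, on the row of the longest coding transcript. In every library Pde2a and Pde1a together exceed 60% of the left bar and Prkar1a with Prkar1b exceed 80% of the right bar.

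The 5 genes with a Pde name outside the 21 catalytic genes included well expressed members. Pde6d encodes a carrier that takes up prenylated proteins such as Ras family GTPases and ciliary cargo, and was first named as a subunit of the photoreceptor enzyme. It was at 24.9, 23.5 and 24.8 TPM in libraries 1 to 3, with a coefficient of variation of 3.25%, far above the other PDE6 genes. Pde6g and Pde6h, the inhibitory subunits of the rod and cone enzymes, rested on 1, 1 and 2 reads and 0, 1 and 6 reads. Pde4dip, myomegalin, a protein of the Golgi and centrosome that binds PDE4, was at 22.7, 25.4 and 23.9 TPM. Pde12, a mitochondrial enzyme that trims poly-A tails and 2′,5′-linked oligoadenylate, was at 2.69 ± 0.220 TPM. None of these 5 is known to hydrolyse a 3′,5′-cyclic nucleotide, and they were left out of the shares above.

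All 6 PKA subunit genes were at 10 TPM or more, between percentiles 81.9 and 99.2 of protein-coding genes, and their sum was 500.2, 548 and 463 TPM in libraries 1, 2 and 3. For the catalytic subunits, Prkacb (chr3:146729579-146812960, minus strand) was at 110.3, 131 and 105 TPM and Prkaca (chr8:83972978-83996445, plus strand) at 55.1, 58.5 and 49.4 TPM. Prkacb exceeded Prkaca in every library by a log2 difference of 1.07 ± 0.08, a ratio of 2.12, and held 67.9% ± 1.24 of the catalytic level. Adding up all rows raised the difference to 3.35. Prkacb has 5 rows and Prkaca has 1, and how much of the change came from this was not tested. The 2 longest coding transcripts encode proteins of 351 codons each, of which 321 (91.5%) encode the same residue, while 80.2% of their coding bases are identical. Of the 50-base words of the Prkaca transcript, 99.6% occur at no other annotated locus.

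Type I genes dominated the regulatory subunits. Prkar1a (chr11:109649405-109669656, plus strand), found in most tissues and mutated in Carney complex, was at 141, 158 and 132 TPM. Prkar1b (chr5:139017306-139150001, minus strand), the largely neuronal type I gene, was at 132, 134 and 120.0 TPM. Prkar1b lay below Prkar1a in each library, although their ranges overlapped, with a log2 difference of -0.16 ± 0.07. That order rests on the choice of row: with the highest row of each gene the difference was 0.02, and with all rows added up 0.69, in favour of Prkar1b.

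Among type II genes, Prkar2b, the main neuronal type II gene (chr12:31958476-32061296, minus strand), was at 46.2, 50.5 and 42.3 TPM and Prkar2a (chr9:108689314-108750436, plus strand) at 15.5, 16.7 and 14.3 TPM. Prkar2b was higher in every library by a log2 difference of 1.52 ± 0.02. The size of that difference also rests on the row: it was 0.42 with the highest row of each gene and 0.27 with all rows added up. The longest row of Prkar2a was at 15.5 TPM, while 2 shorter coding rows that lie wholly within its exons were at 36.9 ± 4.17 TPM and 24.0 ± 1.94 TPM. Which of these rows best gives the level of Prkar2a was not tested.

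Type I genes, the pair with alanine or glycine in the inhibitor sites printed above, summed to 273, 291 and 252 TPM and type II genes, the pair with serine, to 61.7, 67.2 and 56.6 TPM. The log2 difference was 2.12 ± 0.02, a ratio of 4.40, and type I genes held 81.5% ± 0.223 of the regulatory level. Prkar1a alone held 43.0%, Prkar1b 38.5%, Prkar2b 13.9% and Prkar2a 4.64%. The type I share was 77.7% with the highest rows and 86.9% with all rows. Regulatory genes together exceeded catalytic genes, at 335, 359 and 309 TPM against 165, 189.8 and 154 TPM, a log2 difference of -0.98 ± 0.05 for catalytic against regulatory genes, or -1.67 with all rows added up.

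The 42 genes had 220 transcript rows, and rows of a gene that share exons share reads. The highest row was at least 1.5 times the longest coding row in 2 of the 20 detected genes with more than 1 row, Prkar2a and Pde7a. Below the longest coding row the spread was wide in several genes: the lowest row was at 16.2 TPM in Pde1a, 2.62 TPM in Adcy3 and 0.162 TPM in Pde4a. Pde7a was at 4.18 TPM on its longest coding row and at 10.2 ± 0.338 TPM and 8.52 ± 1.05 TPM on 2 short rows annotated as processed transcript and as subject to nonsense-mediated decay.

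PDE4 genes are known for long and short forms made from different promoters that share 1 catalytic domain, and rows that end before the shared exons show the upstream parts on their own. In Pde4d, 14 rows that share exons with the longest coding row stood at 8.98 to 14.3 TPM. The 6 rows with no base in common with it stood at 0.0593 to 1.36 TPM. The far upstream rows Pde4d-210, Pde4d-211 and Pde4d-215 rested on 1 to 9 reads per library. Rows Pde4d-214 and Pde4d-212, which are annotated as retained introns, were at 0.893 ± 0.251 TPM and 1.36 ± 0.397 TPM.

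Pde4b also had upstream rows far below the rest, but several of them share exons with its longest coding row, unlike the low rows of Pde4d. Pde4b-206 and Pde4b-213 shared 58.7% and 67.9% of their bases with that row. Coding rows that reach the shared 3′ exons were at 10.1 to 18.6 TPM, and the row with no base in common with the longest, Pde4b-211, was at 1.32 ± 0.325 TPM. The truncated coding rows Pde4b-206 and Pde4b-210 were at 1.54 ± 0.108 TPM and 1.70 ± 0.211 TPM. Elsewhere, a Prkar1b row outside the longest transcript, Prkar1b-205, was at 1.18 ± 0.224 TPM, and the retained-intron row Pde10a-207 at 0.461 ± 0.0401 TPM against 5.50 TPM on the longest Pde10a row. Which promoter fed the shared exons cannot be read from these values, because reads of the shared exons are counted on every row that holds them.

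**Figure D3:**
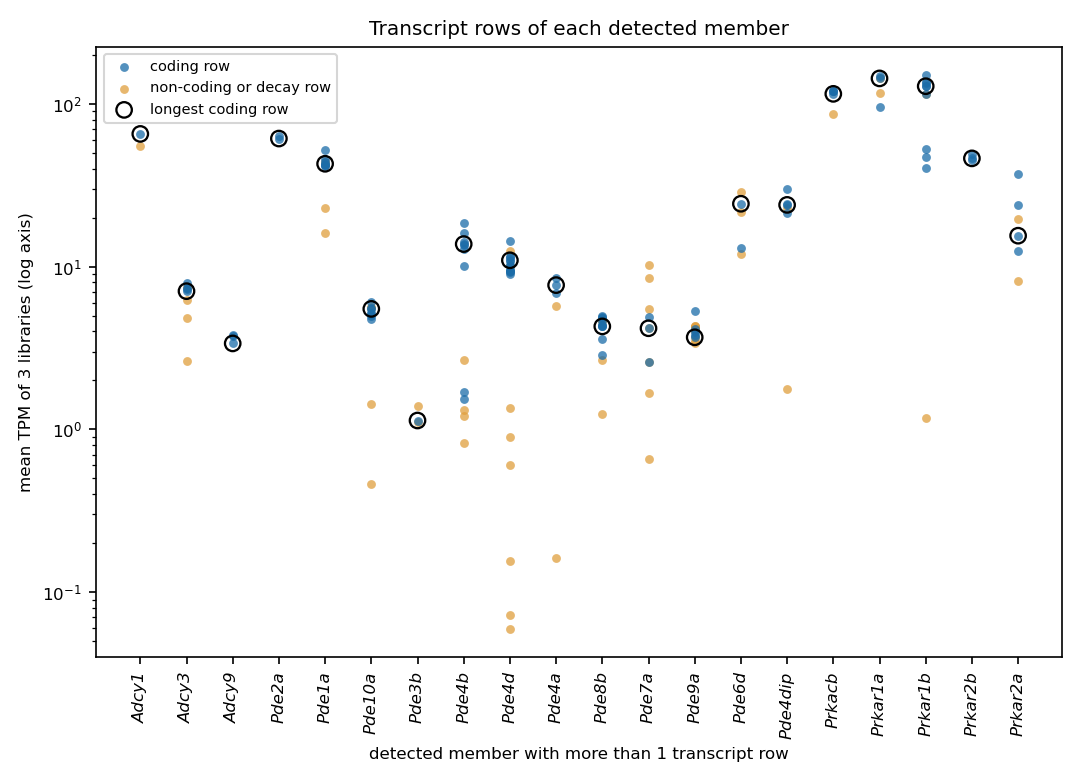
Mean TPM of every transcript row (log axis) of the 20 detected genes with more than 1 row; blue points are coding rows, orange points are non-coding or decay rows, and the circle marks the longest coding row. Rows of Pde4d and Pde4b fall into an upper and a lower group, whereas those of Pde2a and Prkar2b lie close together.

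Several of these genes are very long. Pde4d spans 1504 kb (chr13:108449948-109953461), Pde4b 519.7 kb (chr4:102087543-102607259) and Pde10a 461 kb (chr17:8525372-8986648). The median span of the 42 genes was 91.4 kb, beside 21.2 kb for all protein-coding genes, and 20 of the 42 exceeded 100 kb (47.6%, beside 13.1%). Of those 20, 14 were detected, and of the 22 shorter genes, 13 were. Over all protein-coding genes 73.2% of those over 100 kb and 59.8% of the others were detected. Prkar1a spans 20.3 kb, and Prkaca 23.5 kb.

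Promoter windows from RefSeq (GRCm38.p6, 250 bases before to 50 after a start site) were found for 33 of the 42 genes, 71 windows in all. They were searched on both strands for the cAMP response element TGACGTCA, the site bound by CREB, because PKA phosphorylates that factor. The element was in 2 windows of 1 gene, Prkar1a, beside 1.79% of 32851 windows of all genes. These windows overlap and hold the same copy, shown with 11 bases on each side and the element in capitals:
Prkar1a: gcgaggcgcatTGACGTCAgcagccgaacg
It lies at chr11:109650900-109650907 on the plus strand, 38 bases after 1 annotated start and 42 bases before the next. The shorter core TGACG, which every full element holds, was in 16 of the 71 windows (22.5%), in 14 genes including Pde2a, Pde4b, Prkaca and Prkacb, beside 20.8% of all windows. A match describes these letters and does not show binding.

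Spread between libraries was close to that of other detected genes. The median coefficient of variation of the 27 detected genes was 8.17%, beside 7.88% for all detected protein-coding genes, and the range ran from 1.93% for Pde4b to 17.6% for Pde8b. Library 2 was the highest for 17 of the 27 (63.0%), beside 40.3% of all detected protein-coding genes, library 1 for 6 and library 3 for 4. The 17 include all 6 PKA genes, Adcy1 and Pde1a. Library 3 was highest for Adcy8, Pde3b, Pde8b and Pde9a.

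Markers of cell types moved between the libraries as well. All 3 inhibitory neuron markers were detected, and their sum was 133, 167 and 98.4 TPM in libraries 1, 2 and 3, with Gad1 at 84.9, 107 and 61.5 TPM. Of 6 oligodendrocyte lineage markers 5 were detected, with sums of 64.7, 48.4 and 81.0 TPM and Pdgfra at 11.5, 4.94 and 18.4 TPM. The 6 astrocyte markers, all detected, summed to 362, 379 and 453 TPM. The neuronal markers summed to 1171, 1221 and 1092 TPM, and the excitatory markers to 187, 184 and 185 TPM. Library 2 thus had the highest neuronal and inhibitory sums and the lowest oligodendrocyte lineage sum. Its excitatory sum was also the lowest, but the excitatory sums differed little between libraries. The part of any of these in the levels of the 27 genes was not tested.

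**Figure D4:**
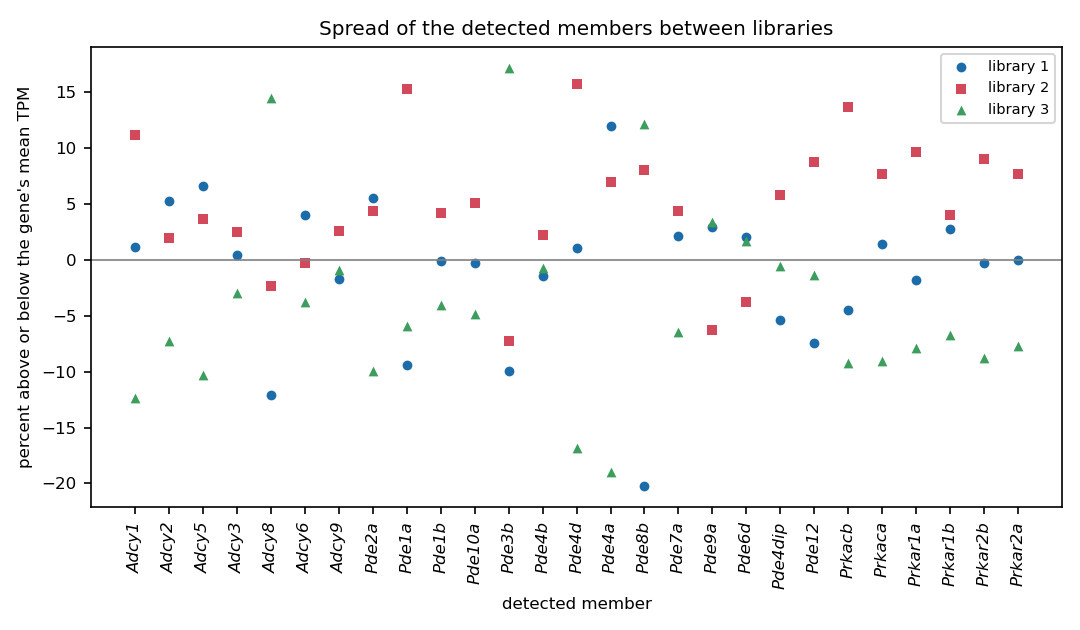
Percent by which each library lies above or below the gene's mean TPM, for the 27 detected genes. Squares (library 2) are the highest symbol in 17 of 27 genes, and Pde8b in library 1 lies farthest below its mean.

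Markers of the labelled cell type were present: all 5 neuronal markers were detected, with Snap25 at 373 ± 27.2 TPM and Syp at 396 ± 25.6 TPM, and all 4 excitatory markers, with Slc17a7 at 90.0 ± 4.47 TPM. Of 5 microglial markers 1 was detected (Aif1 at 1.03 TPM), and of 7 endothelial and mural markers 2, with Cldn5 at 0 in every library. Both proliferation markers were detected, Top2a at 4.13 ± 0.516 TPM and Mki67 at 1.80 ± 0.384 TPM.

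Around the 42 genes, 63 of 64 listed genes of the wider pathway were matched and 42 of the 63 were detected. Upstream, G protein alpha genes were high, 6 of 7 being detected, with Gnao1 at 93.1 ± 1.50 TPM (highest row 507 TPM) and Gnai1 at 72.3 ± 6.57 TPM, both of the inhibitory class. Gnas, which encodes a stimulatory subunit, was at 0.00185 TPM on its longest coding row and at 488 TPM on its highest row, so its longest row does not represent it. Gnal, another G protein alpha gene, was at 41.7 ± 2.21 TPM on its longest coding row. The PACAP receptor gene Adcyap1r1, which couples to adenylyl cyclase, was at 20.5 ± 0.265 TPM, and the gene of its ligand, Adcyap1, at 7.39 ± 1.16 TPM. For cGMP, 4 of 10 guanylyl cyclase genes were detected, led by the nitric oxide receptor subunits Gucy1b1 at 97.6 ± 4.62 TPM and Gucy1a1 at 27.4 ± 3.44 TPM.

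Among effectors other than PKA, Rapgef4 (Epac2) was at 16 ± 2.17 TPM and Rapgef3 (Epac1) at 1.65 ± 0.238 TPM. The cGMP kinase genes Prkg1 and Prkg2 were at 1.50 ± 0.214 TPM and 0.995 ± 0.0813 TPM, near the detection level. Of 10 cyclic nucleotide channel genes 4 were detected, the 4 Hcn genes at 4.40 to 9.68 TPM, and all 6 Cng genes were under 1 TPM. Of 3 Popeye genes only Popdc3 was detected, at 1.26 ± 0.116 TPM.

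PKA partners were well represented. Pkia, which encodes the heat-stable inhibitor that binds free catalytic subunit, was at 165 ± 5.13 TPM, above every PKA subunit gene, and Pkig was at 25.9 ± 0.802 TPM. Pkib was at 0.621 ± 0.109 TPM on its longest coding row and 4.27 TPM on its highest. Of 14 A-kinase anchor genes found, 11 were detected, led by Akap8l at 28.9 ± 3.42 TPM, Akap11 at 27.3 ± 3.35 TPM and Akap7 at 25.6 ± 2.21 TPM. All 8 CREB family and coactivator genes were detected, with Crtc1 at 10.7 ± 1.12 TPM and Creb1 at 5.57 ± 0.689 TPM.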

How the data were processed

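Poly-A RNA of 3 libraries of untreated WT cortical neurons was sequenced with a strand-specific kit, per the labels' protocols. The authors deposited TPM per transcript, 1000000 per library, per the file headers. Per the submitters' processing notes, Trimmomatic, TopHat, Bowtie, HTSeq and the mm10 build were named, without versions or roles. The handling of strand and of multi-mapped reads is not given in the sources used here. Of 84660 rows, 83017 matched GENCODE M21, which gave symbols, exons and coding sequence; coordinates count from base 1. Multiplied by exonic length, TPM gave whole reads (within 0.01) in 100% of 42156 rows: 1 TPM on a 2 kb transcript is 103, 86.5 and 91.4 reads in libraries 1, 2 and 3. That covers counting error only, and these reads were used for depth alone, because no groups exist for a count test.

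Gene value is the row of the longest protein-coding transcript. Logs are log2(TPM + 1), so that ratios between low genes come out too small, and detection is 1 TPM. Differences within libraries were tested by exact sign-flip permutation. Members, lists and comparisons were chosen with earlier results of these data known. All 42 members are named, with values in each library for those at 10 TPM or more and those compared. Alternatives were the highest row, the sum over rows, scaling to nuclear protein-coding genes, a pseudocount of 0.1, detection at 0.5 and 5 TPM, genes of at least 1 TPM only, and leaving out each library. Calculations were tested on simulated data, with Python 3.11.15, pandas 2.3.3, numpy 2.4.6, scipy 1.17.1 and matplotlib 3.10.9. Pde6a lies on a chromosome whose sequence is not printed. No protein table was used. The list of striatal markers is not reported here.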

Additional observations from a re-analysis of the deposited data

How the results depend on the processing

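Each of the 10 comparisons was recomputed under 7 alternatives and judged by its sign alone. The 3 sign changes were Pde4d against Pde4b with all rows added up (0.47) and Prkar1b against Prkar1a with the highest row (0.020) and with all rows added up (0.69). The other 8 comparisons kept their sign under all 7 alternatives, although several moved far beyond the SD between libraries: with all rows added up, Pde10a against Pde2a was -1.29, Prkacb against Prkaca 3.35 and Prkar2b against Prkar2a 0.27. A sum over rows counts reads of shared exons on every row that holds them, so it grows with the number of rows. Pde10a has 11 rows and Pde2a 2, Prkacb 5 and Prkaca 1, and Prkar2b 3 and Prkar2a 6. How much of each change came from this was not tested. The median of log2(TPM + 1) over the 42 genes was 2.75 with the highest row, 3.51 with all rows, 4.59 after scaling to nuclear protein-coding genes, 2.30 with a pseudocount of 0.1 and 3.58 over genes of at least 1 TPM. Scaling moved the median of all protein-coding genes too, from 1.94 to 3.86, so the 42 genes stood 0.73 above it instead of 0.60. That gap was 0.62 with the highest row, 0.51 with all rows, 0.75 with a pseudocount of 0.1 and 0.39 over genes of at least 1 TPM. Leaving out 1 library gave member medians of 2.51 to 2.59. The Prkar1 share was 77.7% with the highest row and 86.9% with all rows. The cAMP-specific share was 29.3% with the highest row, 38.1% with all rows and 24.8% over genes of at least 1 TPM, and the dual-specificity share 67.8%, 56.3% and 73.0%. The cGMP-specific share was 2.90% with the highest row and 5.57% with all rows. Detected genes numbered 27 without any 1 library, 27 with the highest row, 31 with all rows, 32 after scaling, 29 at 0.5 TPM and 21 at 5 TPM. The share of all protein-coding genes detected under these settings is not given here. These counts therefore do not say whether the 42 genes differ from other genes.

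At this depth 1 read on a long transcript is below 0.01 TPM, so levels of Adcy4, Adcy10 and Pde6b are those of a few reads. The 3 libraries of 1 group allow no comparison of conditions and no p below 0.25. Unique 50-base words were fewest in Pde8b (91.7%) and Pde9a (94.7%).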
